A study of Mus musculus with 26 samples.

Results

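The immunity-related GTPases of the IRG family were described here in mouse liver. The 7 members were Irgm1, Irgm2, Igtp, Iigp1, Ifi47, Tgtp1 and Tgtp2, found as the rows of the deposited read-count table whose gene IDs map to those symbols, out of 55401 genes in the table. All 7 passed the filter on low counts and were among the 16238 genes tested. Livers of mice given exosomes derived from UCMSCs (UCMSC-Exos, 8 libraries) were compared with livers of untreated mice (untreated HFD, 9 libraries). All mice were C57BL/6 males that had eaten a high-fat diet for 18 weeks, starting when they were 4 weeks old, and the series design describes that diet as also rich in cholesterol. The exosomes, small membrane vesicles released by cells, went in through the tail vein every 72 hours for 8 weeks. The labels list no injection for the untreated mice and give no cage, litter or sequencing batch. An effect of the exosomes, of the injections as such and of housing or cohort thus cannot be told apart. A further group of 9 samples (LSCR) was not analysed here. The labels do not say how the libraries of a group are related beyond being separate samples, so p-values measure the spread between these samples. The tests treated each library as independent.

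IRG proteins are large GTPases that interferon-gamma induces in mouse cells, and they act inside the cell against parasites and bacteria that live in vacuoles. The GMS members (Irgm1, Irgm2 and Igtp, the last also called Irgm3) stay on the cell's own membranes and keep the other members inactive there. The GKS members (Iigp1, also called Irga6; Ifi47, also called Irgd; Tgtp1 and Tgtp2, together called Irgb6) gather on the vacuole of a parasite such as Toxoplasma and break it. The subfamily names come from the nucleotide-binding loop, where GMS proteins carry methionine in place of the lysine that GKS proteins share with most GTPases.

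On mm10, Irgm1 (chr11:48861968-48871683, minus strand), Tgtp1 (chr11:48985327-48994172, minus), Tgtp2 (chr11:49057194-49064206, minus) and Ifi47 (chr11:49076587-49096974, plus) lie near each other on chromosome 11. Igtp (chr11:58199556-58207591, plus) and Irgm2 (chr11:58199618-58222782, plus) overlap further along the same chromosome; Iigp1 lies elsewhere. The loop that names the subfamilies is shown first, from GENCODE M21 transcripts of the members on that chromosome, with the codon that separates GMS from GKS in capitals.
Irgm1, Irgm2 and Igtp: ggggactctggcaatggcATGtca
Ifi47: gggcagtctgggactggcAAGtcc
Tgtp1 and Tgtp2: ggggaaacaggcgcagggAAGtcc
The 3 GMS genes had the same letters over this stretch, with the methionine codon ATG. The GKS genes had the lysine codon AAG, which Iigp1 also carried. Over the coding sequence Tgtp1 and Tgtp2 were 99.7% identical across 1245 aligned bases. The other pairs of members were 61.7% to 74.6% identical.

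Promoters, 250 bases before to 50 after the RefSeq start (build GRCm38.p6), were matched for 6 of the 7 members, all but Iigp1. They were searched on both strands for 2 letter patterns known from interferon-induced promoters. The first was the interferon-stimulated response element, ISRE, spelled as GAAA and again GAAA with 2 bases of any kind between. The second was the gamma-activated sequence, GAS (TTCNNNGAA). An ISRE match was in 5 of the 6 members' promoters, all but Ifi47, against 3.44% of all 32851 promoters of that length. A GAS match was in 4 of the 6, those of Irgm2, Igtp, Tgtp1 and Tgtp2, against 8.3% of all promoters. The 5 promoters with a match are shown on the strand of the gene, with both patterns in capitals.
Irgm1 (chr11:48871371-48871670, minus strand): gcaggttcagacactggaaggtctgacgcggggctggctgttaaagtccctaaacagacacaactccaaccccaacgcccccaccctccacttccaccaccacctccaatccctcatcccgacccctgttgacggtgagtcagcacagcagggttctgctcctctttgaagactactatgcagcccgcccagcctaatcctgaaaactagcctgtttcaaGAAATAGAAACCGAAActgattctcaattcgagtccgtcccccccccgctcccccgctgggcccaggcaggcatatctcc
Irgm2 (chr11:58214727-58215026, plus strand): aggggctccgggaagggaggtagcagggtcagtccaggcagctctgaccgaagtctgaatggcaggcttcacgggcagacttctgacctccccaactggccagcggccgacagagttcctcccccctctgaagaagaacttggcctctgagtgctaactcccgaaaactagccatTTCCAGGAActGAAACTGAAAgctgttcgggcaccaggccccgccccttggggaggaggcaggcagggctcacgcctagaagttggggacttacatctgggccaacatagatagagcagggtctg
Igtp (chr11:58199306-58199605, plus strand): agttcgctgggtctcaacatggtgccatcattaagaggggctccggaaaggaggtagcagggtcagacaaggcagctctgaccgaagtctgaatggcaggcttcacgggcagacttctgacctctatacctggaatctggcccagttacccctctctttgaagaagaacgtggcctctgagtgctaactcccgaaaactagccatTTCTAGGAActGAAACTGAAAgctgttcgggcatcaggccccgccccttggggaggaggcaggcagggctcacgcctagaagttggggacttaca
Tgtp1 (chr11:48992197-48992496, minus strand): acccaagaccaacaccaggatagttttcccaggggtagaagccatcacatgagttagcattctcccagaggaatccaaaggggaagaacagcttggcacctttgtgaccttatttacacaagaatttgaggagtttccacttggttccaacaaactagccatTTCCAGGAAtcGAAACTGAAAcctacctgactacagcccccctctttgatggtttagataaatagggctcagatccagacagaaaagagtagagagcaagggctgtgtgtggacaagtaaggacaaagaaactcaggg
Tgtp2 (chr11:49064163-49064462, minus strand): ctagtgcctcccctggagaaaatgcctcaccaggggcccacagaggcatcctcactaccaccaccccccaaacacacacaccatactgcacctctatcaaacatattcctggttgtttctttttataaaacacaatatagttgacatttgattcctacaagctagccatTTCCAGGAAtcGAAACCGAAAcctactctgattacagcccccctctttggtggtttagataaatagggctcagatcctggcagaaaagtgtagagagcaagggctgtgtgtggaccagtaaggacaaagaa
In Irgm2, Igtp, Tgtp1 and Tgtp2 the GAS match stood directly before the ISRE match with 2 bases of any kind between them. This joined pattern was put together after the members' promoters had been read, so finding it in them is no test. Of all 32851 promoters, 5 held it (0.0152%), those of the 4 members and of Gm12185, a further IRG-like gene. The window of Gm12185 does not overlap that of Tgtp1, though exons of these genes share 223 bases. The promoters of Irgm2 and Igtp were 92.1% identical over 265 aligned bases, and those of Tgtp1 and Tgtp2 80.5% identical over 272. A match describes the letters and does not show a working site.

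Total counts were 32.9 to 36.1 M reads per library, both mates of a pair counted. The markers of hepatocytes, the main cell of the liver, were abundant in every library, at 41905 to 78719.8 summed CPM (counts per M reads assigned to genes) in UCMSC-Exos and 35075 to 53777 in untreated HFD. Untreated HFD 3 held pancreatic acinar transcripts (13853 summed CPM of 12 genes, against at most 18.4 in any other library). Untreated HFD 9 held skeletal muscle transcripts (9739 summed CPM of 6 genes, against at most 2.19 elsewhere), and values without these libraries are given where they change the call of a named IRG gene. In all, 3274 of the 16238 tested genes (20.2%) passed an adjusted p of 0.05 in edgeR's quasi-likelihood test with Benjamini-Hochberg adjustment, 1694 lower (10.4%) and 1580 higher (9.73%) in UCMSC-Exos. Leaving out 1 library at a time moved that count between 2005 (without UCMSC-Exos 3) and 5823 (without UCMSC-Exos 9). It was also more than 1.5 times lower without UCMSC-Exos 2, at 2086.

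Of the 7 IRG genes, 4 fell in UCMSC-Exos (Irgm2, Igtp, Ifi47 and Tgtp2) and 0 rose, where 10.4% of all tested genes fell. Irgm1, Iigp1 and Tgtp1 did not pass. The median log2 fold change of the 7, UCMSC-Exos over untreated HFD, was -0.57, against -0.02 over all tested genes. The count was 2 when no filter on low counts was used, and from 2 to 6 when 1 library was left out. It was 2 without UCMSC-Exos 1, 2, 3 or 8.

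Among the GMS regulators, Irgm2 ran from 88.5 to 202 CPM in UCMSC-Exos with a median of 101, against 148 to 219 CPM with a median of 180.4 in untreated HFD. In 6 of the 8 UCMSC-Exos libraries Irgm2 lay below the lowest untreated library, and the groups overlapped through UCMSC-Exos 5 and 6. Its mean was 121 ± 39.9 CPM in UCMSC-Exos (SD, n = 8) and 179.8 ± 23.2 CPM in untreated HFD (SD, n = 9), a log2 fold change of -0.57 ± 0.15 (SE; adjusted p = 0.0137, edgeR quasi-likelihood test). This call held in all 17 fits that left out 1 library.

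Igtp, which sits on the endoplasmic reticulum and on lipid droplets, had the widest spread of the GMS genes relative to its mean in UCMSC-Exos. In UCMSC-Exos 1, 2, 3, 5, 6, 7, 8 and 9 it had 58.4, 58.3, 59.8, 166, 142, 106, 71 and 51.8 CPM. The untreated HFD libraries ran from 116 to 172 CPM with a median of 131. UCMSC-Exos 5 and 6 were inside the untreated range and the other 6 libraries of that group below it. The mean was 89.2 ± 43.9 CPM in UCMSC-Exos and 138 ± 19 CPM in untreated HFD (SD). The log2 fold change was -0.63 ± 0.22 (SE; adjusted p = 0.0495, edgeR quasi-likelihood test). That p lies close to the threshold, and the call held in 3 of the 17 fits that left out 1 library, those without UCMSC-Exos 5, UCMSC-Exos 6 or untreated HFD 3, with adjusted p between 0.00888 and 0.1 over all 17. Without untreated HFD 3 and 9 together the log2 fold change was -0.69 (adjusted p = 0.055). Exons of Igtp and Irgm2 share 162 bases on the same strand, where reads cannot be told apart.

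Irgm1, the regulator known from resistance to mycobacteria, ran from 71.4 to 198 CPM in UCMSC-Exos with a median of 99.5, against 106 to 195 CPM with a median of 152 in untreated HFD. UCMSC-Exos 5 was above the highest untreated library and 5 of the UCMSC-Exos libraries were below the lowest. Its log2 fold change was -0.34 ± 0.17 (SE; 95% interval -0.70 to 0.03; adjusted p = 0.169, edgeR quasi-likelihood test). It passed in 1 of the 17 fits, that without UCMSC-Exos 5 (-0.48, adjusted p = 0.0451).

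**Figure D1:**
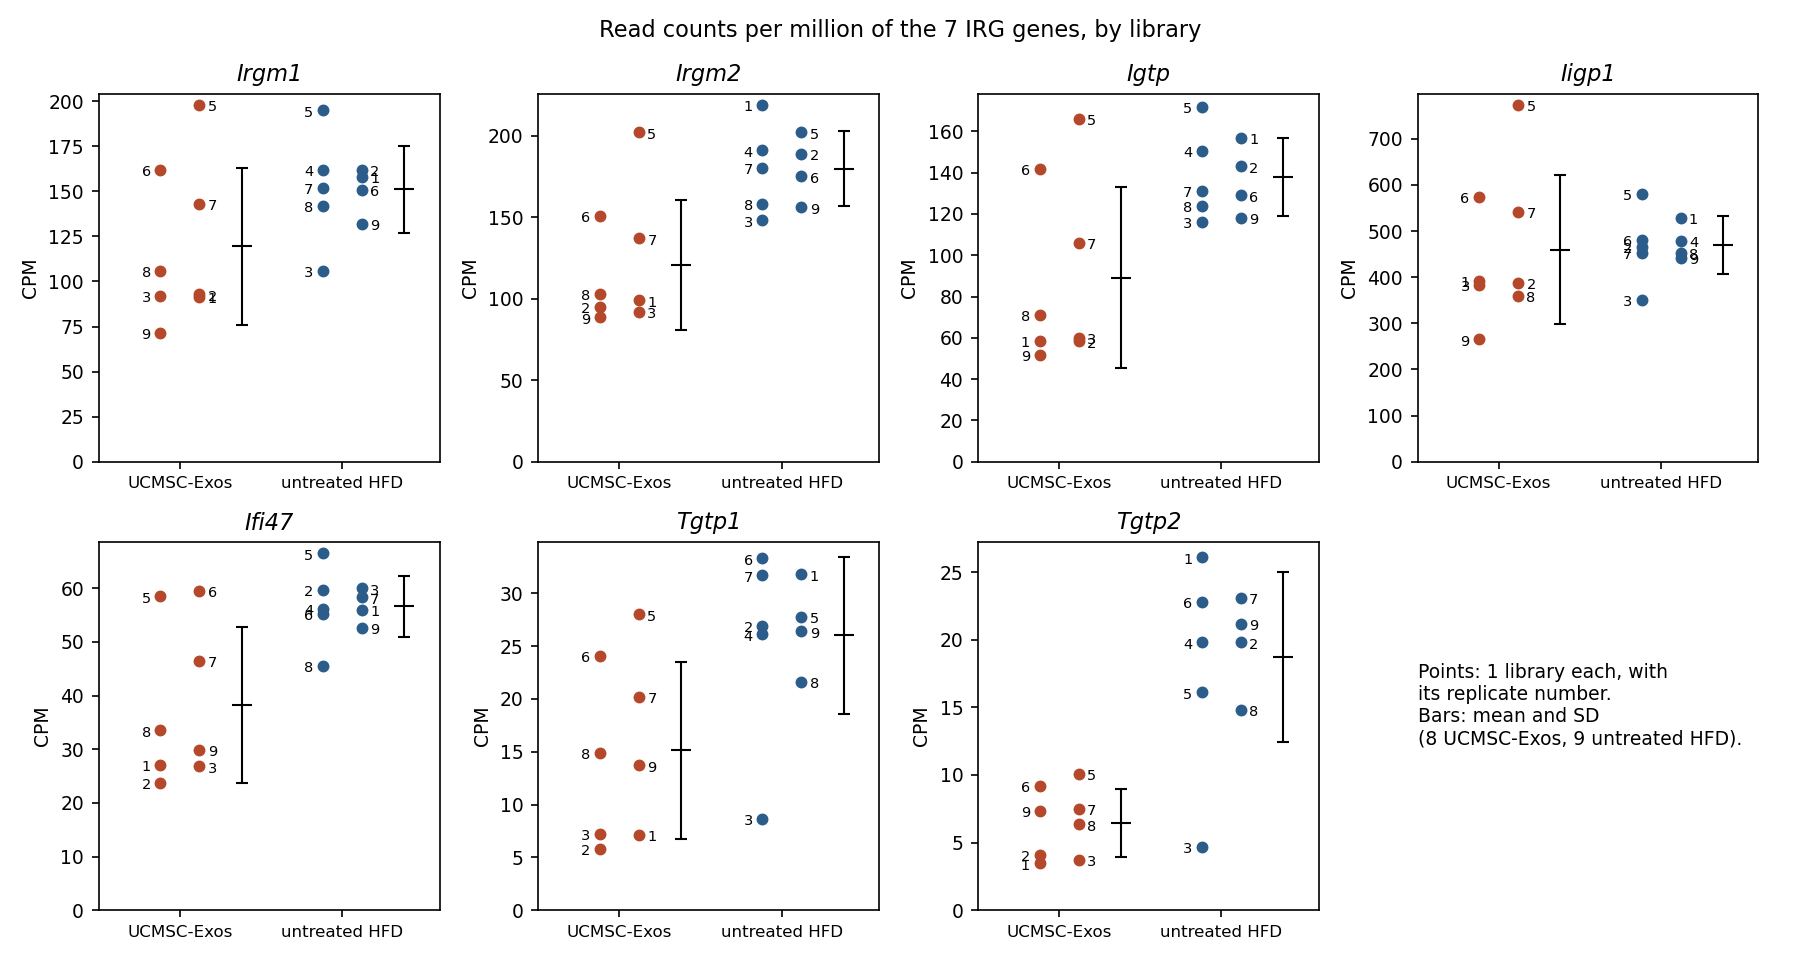
CPM (y axis, linear, from 0) of each IRG gene in UCMSC-Exos libraries (left, red) and untreated HFD libraries (right, blue). Points are libraries with their replicate numbers, and black bars are the mean and SD of 8 and 9 libraries. UCMSC-Exos 5, 6 and 7 are the highest of their group for all 7 genes, and untreated HFD 3 is far below its group for Tgtp1 and Tgtp2.

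Among the GKS effectors, Tgtp2 showed the largest fall of the 7 genes. It ran from 3.47 to 10.1 CPM in UCMSC-Exos with a median of 6.85, against 4.7 to 26.1 CPM with a median of 19.8 in untreated HFD. All 8 UCMSC-Exos libraries were below the 8 untreated libraries other than untreated HFD 3, and 3 were below that library too. The mean was 6.47 ± 2.53 CPM in UCMSC-Exos and 18.7 ± 6.3 CPM in untreated HFD (SD), a log2 fold change of -1.53 ± 0.28 (SE; adjusted p = 0.00153, edgeR quasi-likelihood test). The call held in all 17 fits that left out 1 library.

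Tgtp1, the near-identical neighbour of Tgtp2, ran from 5.8 to 28 CPM in UCMSC-Exos with a median of 14.3, against 8.67 to 33.3 CPM with a median of 26.9 in untreated HFD. The lowest untreated value was again untreated HFD 3. The log2 fold change was -0.78 ± 0.32 (SE; 95% interval -1.45 to -0.12; adjusted p = 0.0864, edgeR quasi-likelihood test). It passed without untreated HFD 3 (-0.90, adjusted p = 0.0345) and without UCMSC-Exos 5 (-0.97, adjusted p = 0.0479). With the replicate number as a block it was -0.88 (adjusted p = 0.0368), and the Wald test of DESeq2 gave -0.78 (adjusted p = 0.0358). Words of 100 bases shared with other genes made up 73.1% of the Tgtp1 and 76.8% of the Tgtp2 transcript sequence. Reads from such stretches cannot be assigned to either gene with certainty, so the level of each is uncertain.

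Ifi47 ran from 23.8 to 59.6 CPM in UCMSC-Exos with a median of 31.7, against 45.6 to 66.5 CPM with a median of 56.2 in untreated HFD. UCMSC-Exos 5, 6 and 7 were inside the untreated range and the other 5 below it. The log2 fold change was -0.57 ± 0.17 (SE; adjusted p = 0.0274, edgeR quasi-likelihood test), and the call was lost without UCMSC-Exos 1, 2, 3 or 8 (adjusted p up to 0.0611). Exons of Ifi47 share 111 bases with Olfr56 on the same strand and 106 with Gm12188 on the opposite strand, and the counting used no strand.

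Iigp1 had the most reads of the 7 genes and did not pass. In UCMSC-Exos 1, 2, 3, 5, 6, 7, 8 and 9 it had 392, 387, 383, 773, 575, 542, 359 and 265 CPM, against 350.2 to 580.2 CPM with a median of 466 in untreated HFD. UCMSC-Exos 5 was above and UCMSC-Exos 9 below the whole untreated range, and the other 6 libraries of that group were inside it. The log2 fold change was -0.03 ± 0.16 (SE; adjusted p = 0.904, edgeR quasi-likelihood test), with a 95% interval from -0.38 to 0.31 that leaves room for a change in either direction. With 3 surrogate variables in the fit it was -0.49 (adjusted p = 0.126), outside that interval.

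**Figure D2:**
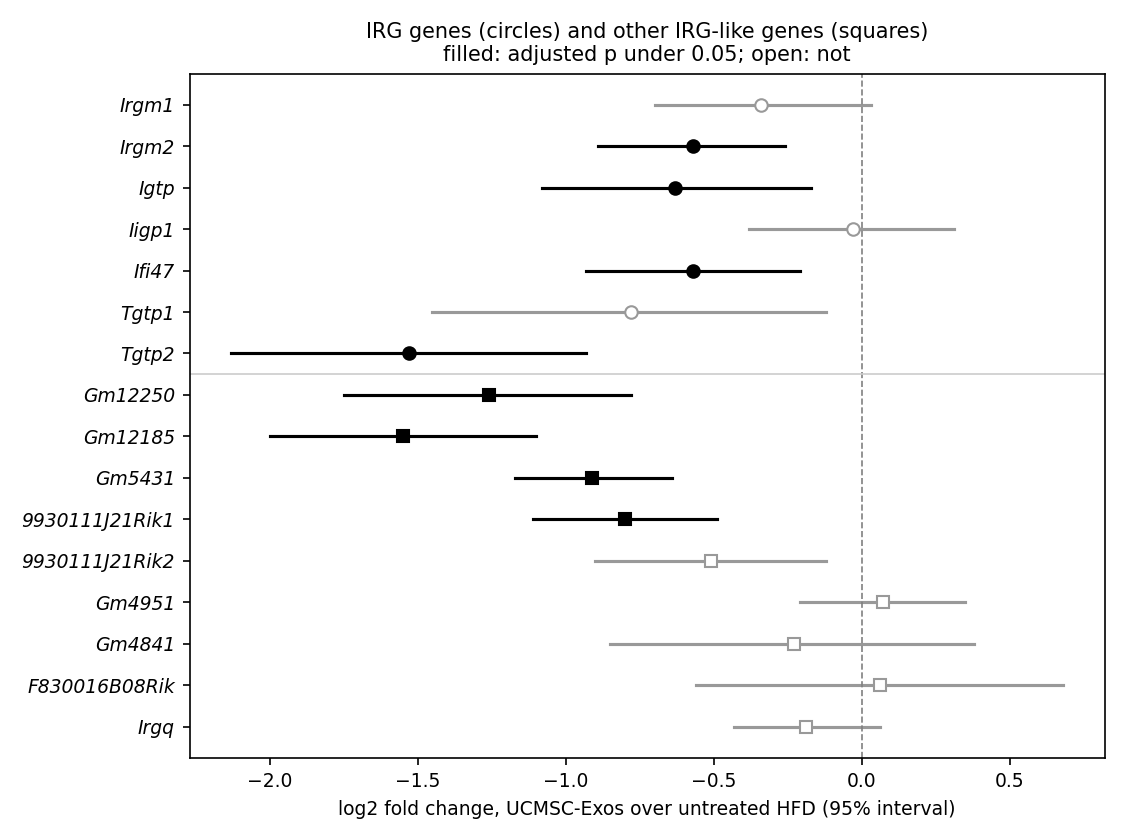
Log2 fold change of UCMSC-Exos over untreated HFD (x axis) with its 95% interval for the 7 IRG genes (circles) and 9 other IRG-like genes (squares). Filled symbols passed an adjusted p of 0.05. Tgtp2 lies lowest of the members at -1.53, and Iigp1 lies near 0.

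The other members were set against Iigp1 by the ratio of their reads within each library, a quantity that no scaling between libraries can change. These ratios, and that of Tgtp2 to Tgtp1, were chosen after the values had been seen, 7 ratios in all, and their p-values are from two-sided exact permutation tests with all 24310 ways to assign the libraries, unadjusted. Iigp1 was the member with the log2 fold change nearest 0, so lower ratios to it followed from that choice. The ratios to Iigp1 share their denominator and are not independent of each other. Igtp had 0.188 ± 0.0344 reads per Iigp1 read in UCMSC-Exos (0.149 to 0.247) and 0.294 ± 0.0216 in untreated HFD (0.267 to 0.331; SD, n = 8 and 9), so the groups did not overlap. The difference of the mean log2 ratios was -0.66, with an exact permutation p of 8.2e-05, the smallest this design can give. Irgm2 per Iigp1 was 0.267 ± 0.0306 in UCMSC-Exos and 0.384 ± 0.0295 in untreated HFD (SD), again with no overlap and the same smallest p. Irgm1 per Iigp1 was 0.26 ± 0.022 in UCMSC-Exos, at most 0.296, and 0.321 ± 0.0186 in untreated HFD, at least 0.299, with the same smallest p. The libraries of the 2 groups, which overlapped for each of these genes alone, did not overlap for the 3 GMS genes relative to Iigp1. Since Iigp1 was picked on these same values, this describes the libraries and is no independent test. The share of all tested genes whose ratio to Iigp1 does not overlap was not computed.

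The GKS genes were also lower relative to Iigp1. For Ifi47 the difference of the mean log2 ratios was -0.55 (exact permutation p = 0.000576), for Tgtp1 -0.82 (exact permutation p = 0.012) and for Tgtp2 -1.42 (exact permutation p = 0.000905), and for each of them some libraries of the groups overlapped. Tgtp2 had 0.473 ± 0.116 reads per Tgtp1 read in UCMSC-Exos (0.36 to 0.706) and 0.704 ± 0.0936 in untreated HFD (0.542 to 0.819; SD). In 7 of the 8 UCMSC-Exos libraries that ratio was below the lowest untreated library, and its difference on the log2 scale was -0.60 (exact permutation p = 0.000823). The reads of this pair are split by few differing bases, as given above, so this ratio carries the same uncertainty.

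Per length, as reads per kilobase and M reads (RPKM), the GMS genes summed together stood at 0.875 to 1.04 times the GKS sum in UCMSC-Exos, with a mean of 0.95 ± 0.064 (SD). In untreated HFD they stood at 1.1 to 1.3 times the GKS sum, with a mean of 1.21 ± 0.0712. The 2 groups did not overlap in this ratio, for which no test was made. Iigp1 makes up most of the GKS sum as counted, with a mean of 78.9 RPKM in UCMSC-Exos and 80.8 in untreated HFD. The other GKS genes were lower in UCMSC-Exos: Ifi47 (15.5 against 22.9), Tgtp1 (4.72 against 8.12) and Tgtp2 (2.2 against 6.36). The ratio thus mainly sets the GMS genes against Iigp1 and does not describe the GKS genes as a whole. A ratio without Iigp1 was not computed. The parts of Tgtp1 and Tgtp2 in the GKS sum are uncertain, since most of their sequence is shared.

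**Figure D3:**
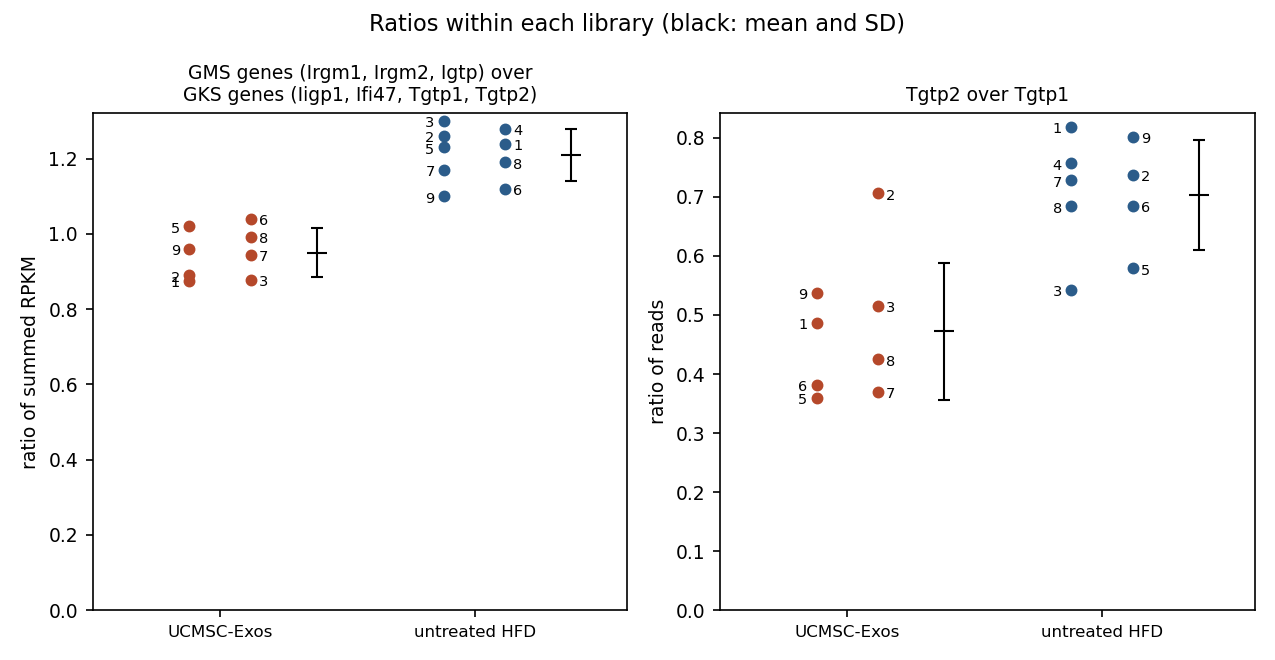
Left, summed RPKM of the GMS genes over that of the GKS genes, and right, reads of Tgtp2 over reads of Tgtp1, in each UCMSC-Exos (red) and untreated HFD (blue) library, with the mean and SD in black. On the left all UCMSC-Exos libraries lie at 1.04 or lower and all untreated libraries at 1.1 or higher, and on the right UCMSC-Exos 2 alone lies among the untreated libraries. Iigp1 makes up most of the GKS sum on the left.

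The order of the RPKM levels was the same in both groups. In UCMSC-Exos it was Iigp1 (78.9 ± 27.7 RPKM, SD, n = 8), Igtp (44.1 ± 21.7), Irgm2 (32.7 ± 10.8), Irgm1 (20.6 ± 7.49), Ifi47 (15.5 ± 5.9), Tgtp1 (4.72 ± 2.61) and Tgtp2 (2.2 ± 0.86). The ranges of mean ± SD overlapped between all neighbours in that order except Ifi47 and Tgtp1. In untreated HFD the levels were 80.8 ± 10.8 RPKM for Iigp1, 68.1 ± 9.42 for Igtp, 48.7 ± 6.3 for Irgm2, 26 ± 4.15 for Irgm1, 22.9 ± 2.31 for Ifi47, 8.12 ± 2.32 for Tgtp1 and 6.36 ± 2.14 for Tgtp2 (SD, n = 9). There the neighbours that overlapped were Iigp1 and Igtp, Irgm1 and Ifi47, and Tgtp1 and Tgtp2. Multi-mapping reads were not counted, and 73.1% of the Tgtp1 and 76.8% of the Tgtp2 transcript sequence is shared with other genes. RPKM used the full exon length, so both levels may be too low and their last places in the order are uncertain.

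The members varied more among UCMSC-Exos libraries than among untreated ones, for which no test was made. The coefficient of variation was 33% to 55.2% over the 7 genes in UCMSC-Exos, and 10.1% to 33.7% in untreated HFD. For Igtp it was 49.2% in UCMSC-Exos and 13.8% in untreated HFD, and for Tgtp2, where untreated HFD 3 stands far from its group, 39% in UCMSC-Exos and 33.7% in untreated HFD. After each group's mean was subtracted, log2 CPM of Irgm1, Irgm2, Igtp and Iigp1 correlated pairwise with Pearson's r of 0.92 to 0.96 over the 17 libraries, as a description with no test. Tgtp1 and Tgtp2 correlated at 0.93. The lowest of the 21 pairs was Ifi47 with Tgtp2 at 0.47, where r was 0.88 within UCMSC-Exos and -0.15 within untreated HFD. All these points share a library and its depth. UCMSC-Exos 1, 2 and 3 stood close together, at 91.5, 92.8 and 92.1 CPM of Irgm1 and 58.4, 58.3 and 59.8 CPM of Igtp. For Iigp1 they had 392, 387 and 383 CPM. Whether these libraries are independent of each other was not tested.

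Of the further IRG-like genes in the annotation, 11 were in the table and 9 were tested, of which 4 fell and 0 rose, where 10.4% of all tested genes fell. Their median log2 fold change was -0.51. Gm12250, which RefSeq also calls Irgb10, a GKS-type protein known to break bacterial membranes, ran from 5.45 to 19.5 CPM in UCMSC-Exos with a median of 8.48, against 19.1 to 36.3 CPM with a median of 23.2 in untreated HFD. UCMSC-Exos 5 alone reached the untreated range. Its log2 fold change was -1.26 ± 0.23 (SE; adjusted p = 0.00134, edgeR quasi-likelihood test).

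Gm12185 (RefSeq synonym Irgb2b1), whose promoter holds the joined pattern above, had 1.55 ± 0.521 CPM in UCMSC-Exos and 4.55 ± 1.23 CPM in untreated HFD (SD), a log2 fold change of -1.55 ± 0.22 (SE; adjusted p = 0.000112, edgeR quasi-likelihood test). Gm5431 (Irgb9b8) had 7.27 ± 1.21 CPM in UCMSC-Exos and 13.6 ± 2.47 CPM in untreated HFD (SD), a log2 fold change of -0.91 ± 0.13 (SE; adjusted p = 0.000114, edgeR quasi-likelihood test). For both, every UCMSC-Exos library was below every untreated library, which was so for 0.807% of all tested genes and for 0 of the 7 members. Gm12185 shares 223 exon bases with Tgtp1, and reads of the pair cannot be told apart there. The fourth, 9930111J21Rik1, had a log2 fold change of -0.80 ± 0.15 (SE; adjusted p = 0.0014, edgeR quasi-likelihood test).

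The 3 neighbours of Iigp1 on chromosome 18 did not pass, with log2 fold changes of 0.07 for Gm4951 (95% interval -0.21 to 0.35), -0.23 for Gm4841 (-0.85 to 0.38) and 0.06 for F830016B08Rik (-0.56 to 0.68). The signs of Gm4951 and F830016B08Rik turned in some of the alternative fits. Gm4951 ran from 71.2 to 181 CPM in UCMSC-Exos and from 98.6 to 159 CPM in untreated HFD, highest in UCMSC-Exos 5 and in untreated HFD 3. Irgq, a divergent relative (log2 fold change -0.19, 95% interval -0.43 to 0.06), and 9930111J21Rik2 (-0.51, 95% interval -0.90 to -0.12; adjusted p = 0.0575, edgeR quasi-likelihood test) did not pass either. Without untreated HFD 3, whose 3.92 CPM of 9930111J21Rik2 lay far below its group, that gene passed at -0.63 (adjusted p = 0.000883), as it did without untreated HFD 3 and 9 together (-0.59, adjusted p = 0.0018) and without UCMSC-Exos 9 (-0.56, adjusted p = 0.0323). Irgc1 and Gm12187 had at most 6 and 2 reads in a library and were not tested.

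Upstream of the family, interferon-gamma itself was near the limit of detection. Ifng had 0 to 8 reads per UCMSC-Exos library (40 in all, in 7 of 8 libraries) and 0 to 9 per untreated HFD library (24 in all, in 6 of 9), too few to be tested, so a difference was not detectable at this depth. Ifngr1, the ligand-binding chain of its receptor, averaged 46 ± 8.27 CPM in UCMSC-Exos and 46.4 ± 6.92 CPM in untreated HFD (SD), with a log2 fold change of -0.01 (95% interval -0.24 to 0.22). Ifngr2, the signalling chain, fell, with 30.6 ± 3.81 CPM in UCMSC-Exos and 37.1 ± 2.86 CPM in untreated HFD (log2 fold change -0.28 ± 0.08, SE; adjusted p = 0.0166, edgeR quasi-likelihood test).

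Of the 14 tested genes of interferon-gamma signalling, 9 fell and 0 rose, where 10.4% of all tested genes fell, with a median log2 fold change of -0.38. Ciita, the master regulator of MHC class II genes, fell by 0.88 on the log2 scale, Stat2 by 0.47 and Irf8, a factor of myeloid cells, by 0.46. Irf1, a transcription factor that binds ISRE elements, did not pass (log2 fold change -0.35, 95% interval -0.64 to -0.06; adjusted p = 0.0784, edgeR quasi-likelihood test). Its values were 26, 26 and 25.2 CPM in UCMSC-Exos 1, 2 and 3, and 43.6 to 51.8 CPM in the other 5 libraries of that group, against 43 to 55 CPM in untreated HFD.

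Of 7 tested genes of the type I interferon pathway, 3 fell and 0 rose, where 10.4% of all tested genes fell. Without untreated HFD 3 alone, or without it and untreated HFD 9, 4 were lower and 1 was higher. The 3 that fell in the main fit were Irf7, the factor that amplifies type I interferon (-0.90 on the log2 scale), Isg15, the ubiquitin-like modifier (-1.57), and Usp18, which removes it (-0.74). Ifnb1 had 1 read in UCMSC-Exos and 7 in untreated HFD over all libraries and was not tested. Of 14 tested interferon-gamma targets that are not GTPases, 7 fell and 0 rose, beside the same 10.4%, among them the peptide transporters Tap1 (-0.69) and Tap2 (-0.55), the immunoproteasome subunit Psmb8 (-0.47) and Cd274, the PD-L1 ligand (-0.87). With 3 surrogate variables the counts for interferon-gamma signalling and for these targets were 4 and 3. In that fit 545 of all 16238 tested genes were lower, against 1694 in the main fit.

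The guanylate-binding proteins are a second family of interferon-gamma-induced GTPases, which act with the IRG proteins at vacuoles. Of 11 tested, 7 fell and 0 rose, where 10.4% of all tested genes fell, with a median log2 fold change of -0.57, the same as that of the 7 IRG genes. Gbp9 had 29.6 ± 6.04 CPM in UCMSC-Exos and 56.5 ± 4.87 CPM in untreated HFD (SD), with a log2 fold change of -0.93 ± 0.11 (SE; adjusted p = 1.45e-05, edgeR quasi-likelihood test) and no overlap of the groups. Gbp3 (-0.94), Gbp6 (-0.74) and Gbp7 (-0.57) also fell, and the groups did not overlap for Gbp3. Every UCMSC-Exos library was below every untreated library for 0.807% of all tested genes. With 3 surrogate variables the count was 3, where 545 of all 16238 tested genes were lower, against 1694 in the main fit. An ISRE match was in all 5 promoters matched for this family and a GAS match in 2.

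Proteins of the autophagy conjugation system place IRG proteins on vacuoles. Of 15 tested autophagy genes, 6 rose and 0 fell, with a median log2 fold change of 0.22, where 9.73% of all tested genes rose, and 9 did not pass. Those 9 included the conjugation genes Atg3 (0.22), Atg5 (0.21), Atg12 (0.10) and Atg16l1 (0.06). Atg7 (0.27), the enzyme that activates the conjugated proteins, rose. Ulk1, the kinase that starts autophagy, had 138 ± 14.5 CPM in UCMSC-Exos and 101 ± 9.16 CPM in untreated HFD (SD), a log2 fold change of 0.45 ± 0.07 (SE; adjusted p = 0.000454, edgeR quasi-likelihood test), with every UCMSC-Exos library above every untreated one. The groups did not overlap, in either direction, for 1.3% of all tested genes. Gabarapl1 (0.46), Gabarapl2 (0.22) and Map1lc3b (0.27), ubiquitin-like proteins attached to membranes, and Atg14 (0.44), a subunit of the lipid kinase complex, also rose; Ulk1 and Atg14 belong to the degradative pathway rather than to conjugation. With 3 surrogate variables the count was 2 and the median 0.03. In that fit 421 of all 16238 tested genes were higher, against 1580 in the main fit. Of 9 ubiquitin ligases and adaptors at vacuoles, Trim21 (-0.67) and Rnf213 (-0.82) fell and the adaptor Nbr1 (0.35) rose. Of all tested genes, 10.4% fell and 9.73% rose.

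**Figure D4:**
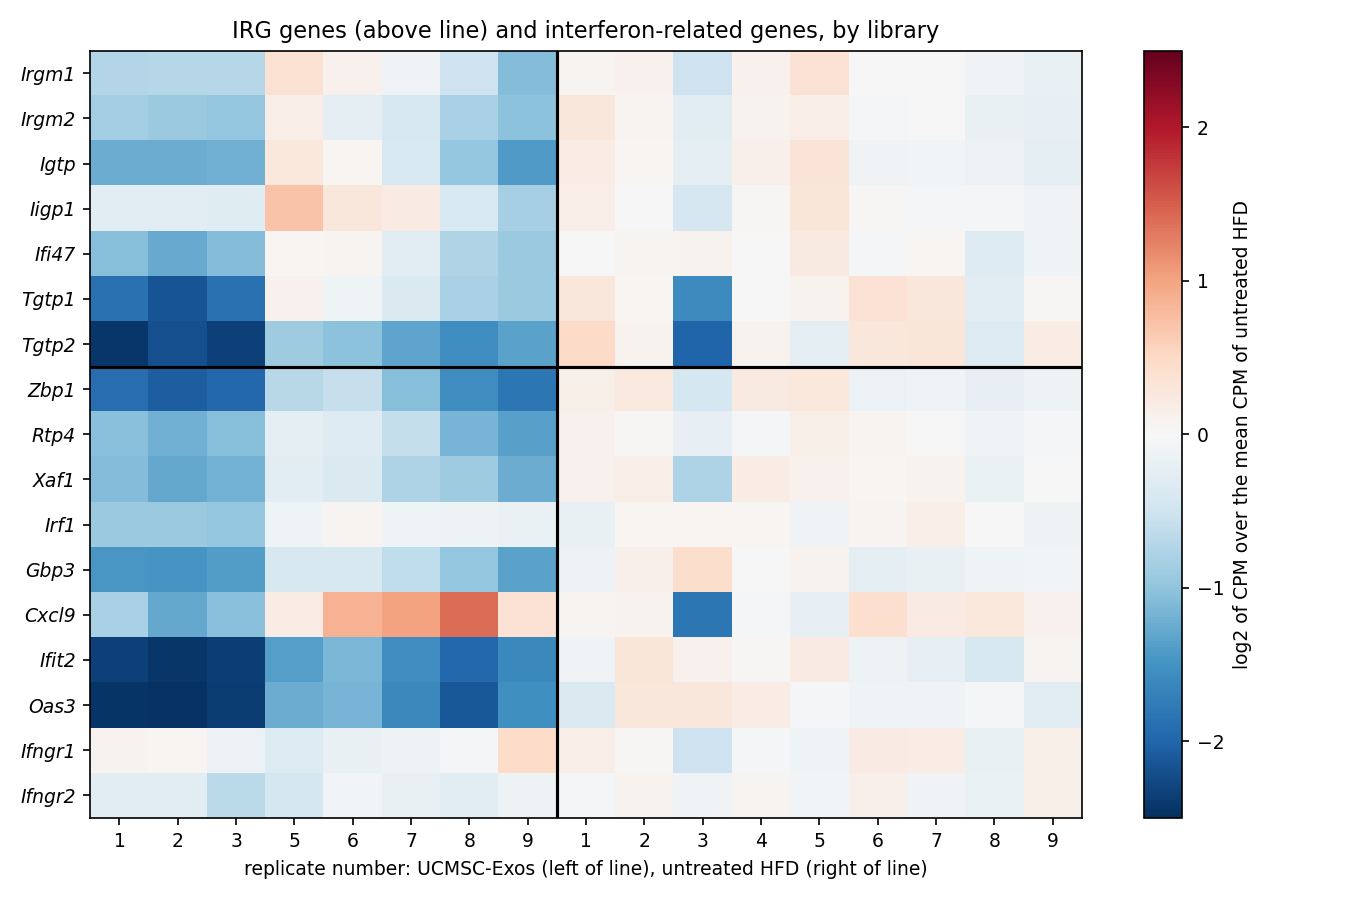
Log2 of CPM over the untreated HFD mean (colour) for the 7 IRG genes (above the line) and 10 interferon-related genes (below it), with UCMSC-Exos libraries to the left and untreated HFD libraries to the right of the vertical line. UCMSC-Exos 1, 2 and 3 are low for nearly all the genes, while UCMSC-Exos 5, 6 and 7 are near the untreated level for most IRG genes and below it for Ifit2 and Oas3.

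The genes most like the family were ranked by Pearson's r with the mean z score of the 7 members over the 17 libraries, after each group's mean was subtracted, among 13788 non-member genes with at least 1 CPM on average. They were Zbp1 (r = 0.95), Rtp4 (0.95), Xaf1 (0.93), Parp14 (0.92), Ifi44 (0.91), Pml (0.90), 2310030G06Rik (0.90) and Mrps2 (0.88). Zbp1 is a sensor of Z-form nucleic acids that triggers cell death. It fell, with 32.4 ± 14.2 CPM in UCMSC-Exos and 81.8 ± 13.7 CPM in untreated HFD (SD), a log2 fold change of -1.34 ± 0.21 (SE; adjusted p = 0.000378, edgeR quasi-likelihood test) with no overlap of the groups. Rtp4, Parp14 and Ifi44 also fell with no overlap, and Xaf1 and Pml fell with 2 UCMSC-Exos libraries inside the untreated range. Every UCMSC-Exos library was below every untreated library for 0.807% of all tested genes. Mrps2, a protein of the mitochondrial ribosome, and 2310030G06Rik did not pass, with log2 fold changes of 0.08 (95% interval -0.09 to 0.24) and -0.06 (-0.30 to 0.19).

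Ifit2, an antiviral protein induced mainly by type I interferon and given here for contrast after its values were seen, had r = 0.69 with the member score, and 0.75 without UCMSC-Exos 5 and untreated HFD 3, the libraries whose scores were farthest from the median. It had 23.2 ± 7.76 CPM in UCMSC-Exos and 79.5 ± 11.7 CPM in untreated HFD (SD), and 30.4, 35.8 and 27 CPM in UCMSC-Exos 5, 6 and 7, all below the lowest untreated value of 60.4 CPM. Cxcl9, a chemokine that interferon-gamma induces, did not pass (log2 fold change 0.38, 95% interval -0.38 to 1.14). It ranged from 17 to 109 CPM in UCMSC-Exos and from 11.8 to 54.7 CPM in untreated HFD. Cxcl9 had r = 0.57 with the member score, Irf1 and Oas3 each 0.59, and Gm12250 0.72. Without UCMSC-Exos 5 and untreated HFD 3 these were 0.61, 0.64, 0.64 and 0.89. The groups differed in r for most of these genes. Within UCMSC-Exos it was 0.95 for Gm12250, 0.82 for Ifit2, 0.81 for Oas3, 0.71 for Irf1 and 0.53 for Cxcl9. Within untreated HFD it was -0.44, 0.10, -0.42, -0.26 and 0.72 in the same order.

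**Figure D5:**
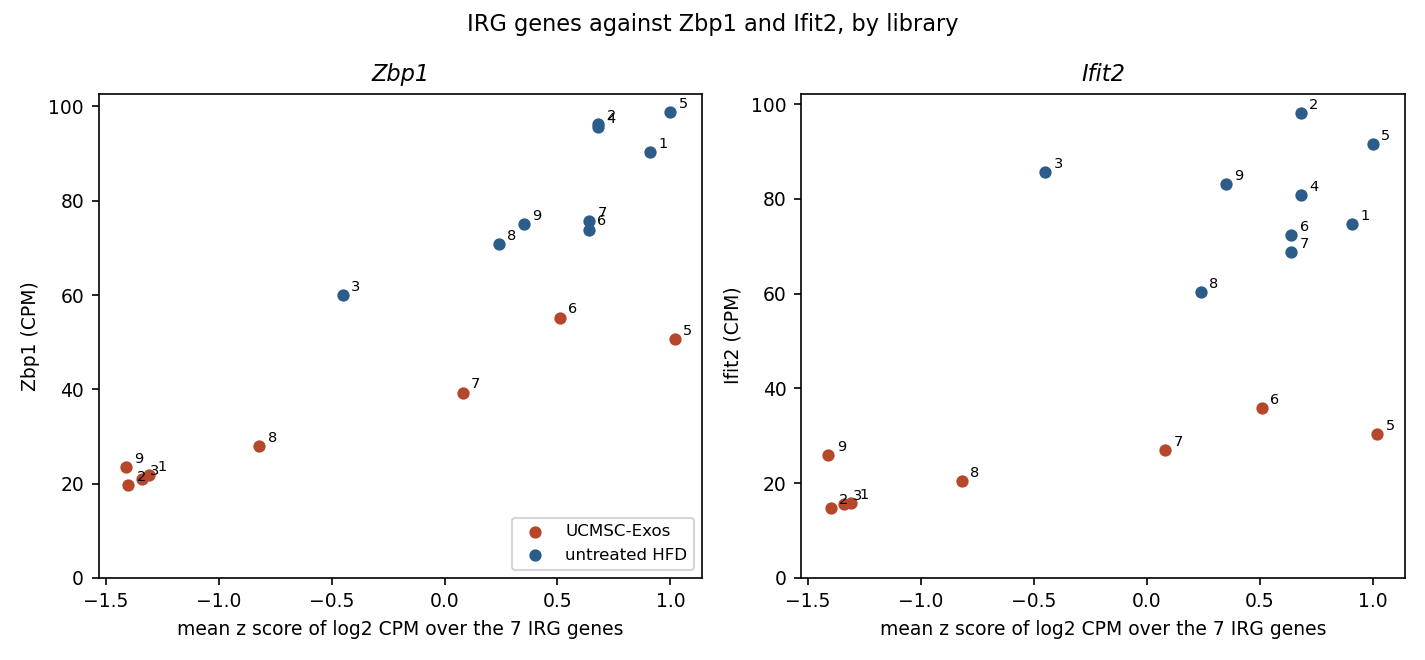
CPM of Zbp1 (left) and Ifit2 (right) on the y axis against the mean z score of log2 CPM over the 7 IRG genes on the x axis, for UCMSC-Exos (red) and untreated HFD (blue) libraries with their replicate numbers. Zbp1 follows the score within UCMSC-Exos, up to 50.7 and 55.2 CPM in UCMSC-Exos 5 and 6, below all untreated libraries, and Ifit2 of all UCMSC-Exos libraries lies at 35.8 CPM or lower.

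Cell-type markers were set beside these values, since in bulk tissue fewer cells of a type and less RNA per cell cannot be told apart. Their counts of calls stand beside 9.73% of all tested genes higher and 10.4% lower. The summed CPM of 6 monocyte markers was 50.5 to 97.2 in UCMSC-Exos and 117 to 210.2 in untreated HFD, and 4 of the 5 tested fell. The summed CPM of 12 Kupffer cell and macrophage markers was 1442 to 2211 in UCMSC-Exos and 961 to 2526 in untreated HFD, with 2 of 12 higher and 3 lower. For 16 T and NK cell markers the sum was 28.7 to 78.7 in UCMSC-Exos and 30.9 to 46 in untreated HFD, with 3 higher and 0 lower. For 8 B and plasma cell markers it was 57.3 to 137 in UCMSC-Exos and 10.2 to 19.5 in untreated HFD, with 3 of 7 tested higher. Of 10 hepatocyte markers 9 were higher, with a median log2 fold change of 0.77. For 7 stellate cell markers the sum was 326 to 852 in UCMSC-Exos and 429.6 to 1394 in untreated HFD, with 3 lower and 0 higher. The 1394 was in untreated HFD 9, the library with skeletal muscle transcripts. Without untreated HFD 3 and 9 the untreated sums were 430.1 to 732. Des, among the 3 lower, had a log2 fold change of -3.46 ± 1.11 (SE). The calls of these markers without those libraries were not tested. For 6 cholangiocyte markers it was 48.5 to 584 in UCMSC-Exos and 118 to 521 in untreated HFD, with 0 of 6 passing and a median log2 fold change of -1.03. For 6 erythroid markers it was 141 to 345 in UCMSC-Exos and 71.5 to 199.5 in untreated HFD, with 3 of 5 tested higher. Without untreated HFD 3 and 9 the untreated erythroid sums were 71.5 to 137. Of 8 sinusoidal endothelial markers 1 was higher and 0 lower, and of 6 tested neutrophil markers 1 was higher and 0 lower. Adipocyte and intestinal markers had 0 passing. None of the markers was at 0 in all libraries except the intestinal Cdx1, and their part in the IRG values was not tested.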

How the data were processed

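Liver RNA-seq of 8 UCMSC-Exos and 9 untreated HFD libraries was analysed from 1 deposited table. The submitters' processing notes name Subread 2.0.2 with featureCounts, HISAT2 2.2.1 and fastp 1.3.3, and the build mm10. The deposited counts, per the file headers, are whole-number reads per gene from featureCounts 2.1.1 over GENCODE vM25 exons, with no strand option and without multi-mapping reads. The versions differ, and both are given as found. The authors did not normalize the counts. Table columns were matched to samples by name; a per-sample column without a matching sample (1 in all) was left out. Each group was planned with 9 mice.

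Counts were fitted in R 4.3.3 with edgeR 4.0.16 (filterByExpr with a minimum count of 10, TMM scaling, robust quasi-likelihood F test, two-sided, Benjamini-Hochberg adjustment over 16238 genes, threshold 0.05). SE is the absolute log2 fold change over the square root of F, and 95% intervals use the total degrees of freedom of the fit, residual plus prior. CPM use the effective library size, log2 CPM a prior count of 2, and RPKM the exon length in the file.

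The members and gene lists were chosen with earlier results of these data known. Named were all members, every tested IRG-like gene, up to 4 passing genes of smallest p per pathway list, the interferon-gamma ligand, receptor chains and Irf1, and the 8 genes most like the family. Ifit2, Oas3, Cxcl9 and Ifnb1, the read ratios and the joined promoter pattern were added after values were seen. As alternatives, scaling used RLE or upper quartiles, the filter was dropped or set at 1 CPM in 8 libraries, and fits used the replicate block, 3 surrogate variables (sva 3.50.0), DESeq2 1.42.0, voom with quality weights (limma 3.58.1) or fewer libraries. The steps were tested on simulated counts. A gene that the naming rule covers is not reported here.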

Additional observations from a re-analysis of the deposited data

Results flagged for a closer look

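In 4 of 34 groups of values (7 members, 9 other IRG-like genes and the Tgtp2 to Tgtp1 read ratio, in each condition), 1 library stood apart from the rest of its group by Dixon's criterion, which chance meets in about 1 in 20 groups. Tgtp1 was low in untreated HFD 3, at 8.67 CPM, where the next lowest untreated library had 21.6 CPM. 9930111J21Rik2 was low in the same library, at 3.92 CPM, with the next at 10.4 CPM. Irgq was high in the same library, at 54.5 CPM, with the next at 35.8 CPM. 9930111J21Rik1 was high in UCMSC-Exos 6, at 3.75 CPM, with the next at 2.79 CPM. Untreated HFD 3 is the library with pancreatic acinar transcripts (13853 summed CPM), whose part in these values was not tested.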

How the results depend on the processing

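Irgm2 and Tgtp2 kept their call under every alternative run, and 0 of the 7 members passed as higher under any. Without the filter the members passing were 2, with Igtp at -0.63 (adjusted p = 0.105) and Ifi47 at -0.57 (0.0539). With the replicate number as a block Tgtp1 passed at -0.88 (0.0368), and 5 members passed; the numbers did not pair the libraries, since 2 of 8 pairs correlated above 0.1 and 0 of 8 correlated best with their own number. With 3 surrogate variables 966 genes passed, and the passing members of lists were 3 guanylate-binding proteins, 4 interferon-gamma signalling genes, 3 of its targets and 2 autophagy genes; Irgm1 passed at -0.80 (0.0271), Ifi47 did not at -0.76 (0.0972), Iigp1 was -0.49 (0.126), 9930111J21Rik2 passed at -0.59 (0.0189), and Gm4951 and F830016B08Rik turned to -0.24 and -0.22. With DESeq2 Tgtp1 passed at -0.78 (0.0358) and 9930111J21Rik2 at -0.50 (0.0367). With voom 7711 genes passed, 5 of type I signalling, 10 of autophagy and 6 ubiquitin ligases or adaptors; Irgm1 passed at -0.46 (0.0143), Tgtp1 at -1.27 (0.00117) and 9930111J21Rik2 at -0.62 (0.000696). Without untreated HFD 3 and 9 together 5 type I genes passed, Igtp did not at -0.69 (0.055), Tgtp1 did at -0.91 (0.0441), and F830016B08Rik turned to -0.07. The causes were not tested. Leaving out 1 library gave 2 to 6 members and 2005 to 5823 genes passing. Log2 fold changes ran from -0.48 to -0.26 for Irgm1, -0.72 to -0.52 for Irgm2, -0.82 to -0.54 for Igtp, -0.18 to 0.05 for Iigp1, -0.69 to -0.49 for Ifi47, -0.97 to -0.66 for Tgtp1 and -1.66 to -1.44 for Tgtp2, and from -0.03 to 0.15 for Gm4951 and -0.09 to 0.24 for F830016B08Rik. Lists then passed 6 to 8 (guanylate-binding proteins), 8 to 10 (interferon-gamma signalling), 5 to 8 (its targets), 4 to 5 (other IRG-like), 3 to 5 (type I), 3 to 3 (ubiquitin ligases) and 4 to 9 (autophagy). All 7 read ratios, which were added after values were seen, kept their side of 0.05 in each left-out fit. Depth limits Ifng, Irgc1 and Gm12187, and shared sequence limits Tgtp1 and Tgtp2.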
